A study of Mus musculus with 2 samples.

Results

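The genes described here are 10 genes of the unfolded protein response, the program that cells switch on when unfolded proteins build up in the endoplasmic reticulum (ER). They were chosen by symbol among the 19454 gene symbols of the tables: the ER chaperones and co-chaperones Hspa5, Hsp90b1, Sdf2l1 and Dnajb9, the folding oxidoreductase Pdia4, the secreted ER factor Manf, the degradation component Herpud1, and the transcription factors Xbp1, Atf4 and Ddit3. All 10 were found, in 11 rows, since Ddit3 has a pair of entries with overlapping loci that were summed. Livers came from untreated female littermates of 8 weeks born to heterozygous parents, 1 AEG-1-WT mouse and 1 AEG-1-C75S knock-in mouse, in which cysteine 75 of the ER-anchored protein AEG-1 is replaced by serine. One section per liver, from the same lobe, was measured by 10x Visium for fixed tissue, which ligates paired probes on each RNA and counts their unique molecular identifiers (UMIs) in spots that each pool the cells lying on them. Since each genotype had 1 section, nothing could be tested between genotypes, the spots of a section being parts of one sample, and every ratio sets one library against the other.

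In the resting ER, the chaperone BiP, made from Hspa5, holds the sensors IRE1, PERK and ATF6 inactive. When clients draw BiP away, IRE1 splices the Xbp1 transcript, PERK phosphorylates eIF2α and thereby favours translation of Atf4, and ATF6 is cut in the Golgi to free a transcription factor. The target genes enlarge the folding, export and degradation capacity of the ER, and Ddit3, which encodes CHOP, links lasting stress to cell death. Hepatocytes carry a high secretory load, so that many of these genes are transcribed in the unstressed liver as well. The probes count transcripts, and neither splicing of Xbp1, translation of Atf4 nor cleavage of ATF6 was read by them.

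The factors act through short promoter elements, and those found in Hspa5, Hsp90b1 and Herpud1 are shown because they are the letters through which the pathway is known to reach its target genes. RefSeq promoters of GRCm38.p6, from 250 bases before to 50 bases after the annotated start, matched 9 of the 10 genes (Manf had no match). On both strands, the ER stress element (ERSE: CCAAT, any 9 bases, CCACG) occurred in 39 of 32851 promoters (0.119%), and among the 9 it was found in Hspa5 and in Hsp90b1, which held it at 2 places. Its shorter relative ERSE-II (ATTGG, any base, CCACG) occurred in 12 promoters (0.0365%), Herpud1 among them. Herpud1 also held the amino acid response motif TGATGNAA on the reverse strand, a motif of 3.97% of promoters, and TGACGTGG, the XBP1 and ATF6 motif of 0.676% of promoters, was in none of the 9. The ERSE shares the letters CCACG with ERSE-II, and a match describes letters in a window and no binding. The stretches below run 5′ to 3′ on the strand of the gene, with the motif letters in capitals. They lie at chr2:34772015-34772053 (plus strand, 75 to 37 bases before the start) for Hspa5, at chr10:86705523-86705666 (minus strand, 222 to 79 bases before it) for Hsp90b1 and at chr8:94386307-94386397 (plus strand, 122 to 32 bases before it) for Herpud1.
Hspa5: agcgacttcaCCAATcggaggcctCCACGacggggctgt
Hsp90b1: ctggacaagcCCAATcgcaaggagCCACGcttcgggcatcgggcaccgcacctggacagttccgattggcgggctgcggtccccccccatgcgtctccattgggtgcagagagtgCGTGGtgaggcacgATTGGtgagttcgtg
Herpud1: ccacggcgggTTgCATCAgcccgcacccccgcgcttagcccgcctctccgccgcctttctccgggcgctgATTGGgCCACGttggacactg
In Hsp90b1 the second element stands on the reverse strand, so that CCACG reads as CGTGG and CCAAT as ATTGG.

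After removal of spots over 50000 UMIs, 2309 AEG-1-WT spots with 42246988 UMIs and 2163 AEG-1-C75S spots with 41674347 UMIs remained (medians of 16830 and 18808 per spot). Of their barcodes, which are positions on a slide, 1887 occurred in both sections. Levels are given as CPM, the UMIs of a gene scaled to the total of its section, with 95% exact Poisson intervals. Log2 ratios between sections are always AEG-1-C75S divided by AEG-1-WT, with exact binomial (Clopper-Pearson) intervals at the same level. Both kinds of interval cover counting error only. Genes carry different numbers of probes, so the levels of different genes do not compare their amounts of RNA. Sums over genes, and the part of a gene in such a sum, are of counted UMIs and carry that weighting. The 4 hepatocyte marker genes alone held 170025 CPM in AEG-1-WT against 174329 CPM in AEG-1-C75S. Most of this was Alb (127352 and 120952 CPM), and 2 of the 4 were above 0. Apoa1 (log2 ratio 0.50) and Serpina1c (−0.44) went opposite ways. In such pooled spots, fewer cells of a type and less RNA per cell cannot be told apart.

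None of the 10 genes differed between the sections by a ratio of 5 to 4 (0.32 on the log2 scale), the fold from which a difference was counted. Of all genes, 10390 had at least 200 UMIs in the 2 sections together, and 5.9% of these were higher in AEG-1-C75S by that fold and 11.6% lower, against 0 of 10 members in each direction. For so few genes, 0 lies near these shares and marks no trait of the members. The members had 1602 UMIs or more over both sections. Genes with few UMIs pass the fold more readily by counting error, so the shares are not matched for depth. Scaled to total UMIs, the 10 genes were not identical in the sections: 6 were slightly higher and 4 slightly lower in AEG-1-C75S, and every interval lay off 0. The 4 lower ones depended on that scale. With ratios centred on the median gene, Manf was at −0.01, Herpud1 at −0.0025, Atf4 at −0.04 and Ddit3 at −0.12. Intervals were not computed on that scale. Their median log2 ratio was 0.10 (1.07-fold), beside −0.05 over all genes tested, of which 40.4% lay above 0 and 90% between −0.48 and 0.35. The summed level of the members was 2491 CPM in AEG-1-WT against 2704 CPM in AEG-1-C75S. Most of that sum and of its difference came from Hsp90b1 (930 and 1081 CPM) and Hspa5 (528 and 585 CPM).

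**Figure D1:**
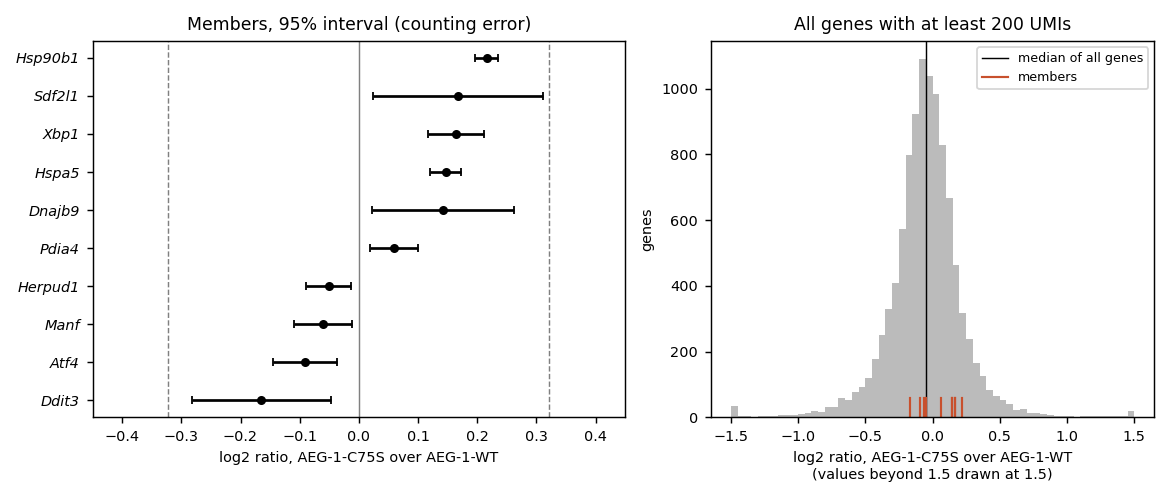
Left, log2 ratio of the AEG-1-C75S section to the AEG-1-WT section for each of the 10 genes over whole sections, with 95% intervals for counting error and dashed lines at a ratio of 5 to 4; 6 genes lie above 0, 4 below it and all within the dashed lines. Right, the same ratio for the same 10390 genes as a histogram, with the members as short vertical lines and the median of all genes, −0.05, as a long one.

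Among the chaperones, Hsp90b1 (GRP94, the HSP90 of the ER) had the highest ratio. It had 39296 UMIs, or 930 CPM (921 to 939), in AEG-1-WT against 45030 UMIs, or 1081 CPM (1071 to 1091), in AEG-1-C75S, a log2 ratio of 0.22 (0.20 to 0.24). Hspa5, the HSP70 of the ER, measured 528 CPM (521 to 535) in AEG-1-WT against 585 CPM (577 to 592) in AEG-1-C75S, a log2 ratio of 0.15 (0.12 to 0.17). The intervals of the levels did not overlap for either gene, and both ratios were under 1.2-fold (1.16 and 1.11). Sdf2l1, a partner of BiP that keeps clients soluble, had 760 and 842 UMIs (log2 ratio 0.17, 0.02 to 0.31). Dnajb9 (ERdj4), a co-chaperone that returns IRE1 to BiP, had 1085 and 1181 UMIs (log2 ratio 0.14, 0.02 to 0.26). These last 2 genes were counted less often, and their intervals reach from near 0 to above the Hsp90b1 ratio.

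Pdia4 (ERp72), which forms and rearranges disulfide bonds in client proteins, differed little, at 227 CPM in AEG-1-WT against 237 CPM in AEG-1-C75S (log2 ratio 0.06, 0.02 to 0.10). Manf, a small protein that binds BiP and is secreted under stress, was at 160 and 154 CPM (−0.06, −0.11 to −0.01). Herpud1, a membrane protein of the ubiquitin ligase complex that clears misfolded proteins, was at 273 and 264 CPM (−0.05, −0.09 to −0.01). These 3 ratios were the closest to 0, and those of Manf and Herpud1 equalled the median of all genes to within 0.02.

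The 3 transcription factors did not go one way. Xbp1 measured 162 CPM in AEG-1-WT (6839 UMIs) against 181 CPM in AEG-1-C75S (7559 UMIs), a log2 ratio of 0.16 (0.12 to 0.21). Atf4, the effector of the eIF2α branch, was at 136 CPM and 127 CPM (5731 and 5308 UMIs), a log2 ratio of −0.09 (−0.14 to −0.04). Ddit3 had the lowest ratio of the 10, with 30.2 CPM in AEG-1-WT against 26.9 CPM in AEG-1-C75S (1276 and 1123 UMIs, log2 ratio −0.16, −0.28 to −0.05). Its entries had 687 and 578 UMIs (−0.23, −0.39 to −0.07) and 589 and 545 UMIs (−0.09, −0.26 to 0.08), both below 0.

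To ask whether the genes followed the lobule, from portal tract to central vein, the spots of each section were ordered by the ratio of the periportal gene Cyp2f2 to the pericentral gene Cyp2e1, each plus 1, and cut into 5 bins of 461 to 462 spots in AEG-1-WT, or 432 to 433 in AEG-1-C75S. From bin 1 to bin 5, Cyp2e1, which defined the order, went from 2154 to 13180 CPM in AEG-1-WT, and from 2300 to 12018 CPM in AEG-1-C75S. No member differed by 5 to 4 between the outer bins in both sections, or in either one. Among 6531 genes measured in both, 2.59% were higher by that fold in the most periportal bin of both sections and 9.62% in the most pericentral bin, and the members called were 0 of 10 and 0 of 10.

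**Figure D2:**
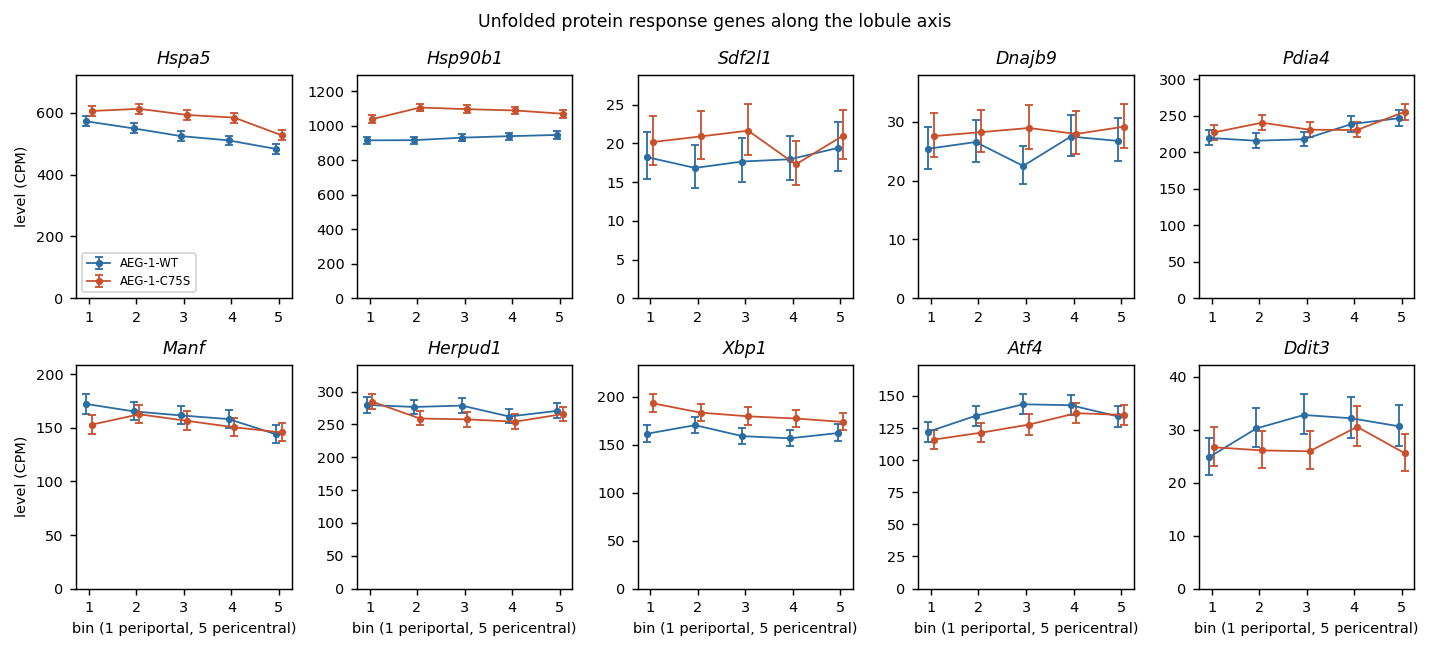
Level of each of the 10 genes in CPM (linear axes from 0) in the 5 bins of the lobule axis, bin 1 being the most periportal, in the AEG-1-WT section (blue) and the AEG-1-C75S section (red), with 95% Poisson intervals. Most curves are nearly flat. Hspa5 falls toward bin 5 in both sections, and the curves of Hsp90b1 stay apart in every bin.

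Hspa5 showed the clearest slope shared by both sections, toward the portal side. In AEG-1-WT its level was 572, 549, 524, 511 and 483 CPM from bin 1 to bin 5. In AEG-1-C75S it was 606, 613, 593, 584 and 527 CPM. The level was lowest in bin 5 of both sections, and in AEG-1-WT the intervals of each pair of neighbouring bins overlapped while those of the outer bins did not (556 to 589 and 468 to 498 CPM). The log2 ratio of bin 1 over bin 5 was 0.25 (0.18 to 0.31) in AEG-1-WT against 0.20 (0.14 to 0.26) in AEG-1-C75S.

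Atf4 and Pdia4 sloped slightly the other way in both sections. Atf4 had 122, 134, 143, 143 and 134 CPM from bin 1 to 5 in AEG-1-WT against 116, 121, 128, 137 and 135 CPM in AEG-1-C75S, with log2 ratios of bin 1 over bin 5 of −0.14 (−0.26 to −0.01) and −0.22 (−0.35 to −0.09). Pdia4 gave −0.17 (−0.26 to −0.07) and −0.17 (−0.26 to −0.08). The median gene, however, also lay lower in bin 1, at −0.13 in AEG-1-WT against −0.11 in AEG-1-C75S. Measured against the median gene, Atf4 (−0.0017 and −0.11) and Pdia4 (−0.03 and −0.06) had intervals that included 0 in both sections, whereas Hspa5 was at 0.38 (0.32 to 0.44) and 0.31 (0.25 to 0.37). On that scale the intervals of Hspa5, Hsp90b1, Manf, Herpud1 and Xbp1 lay above 0 in both sections, and those of the other 5 included 0. By construction, as many genes lie above the median gene as below it. The share of all genes with such intervals was not computed, so no lean of the members as a set can be read from this. The direction of Hsp90b1 depended on the scale: −0.05 and −0.04 of total UMIs, 0.08 and 0.07 against the median gene.

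**Figure D3:**
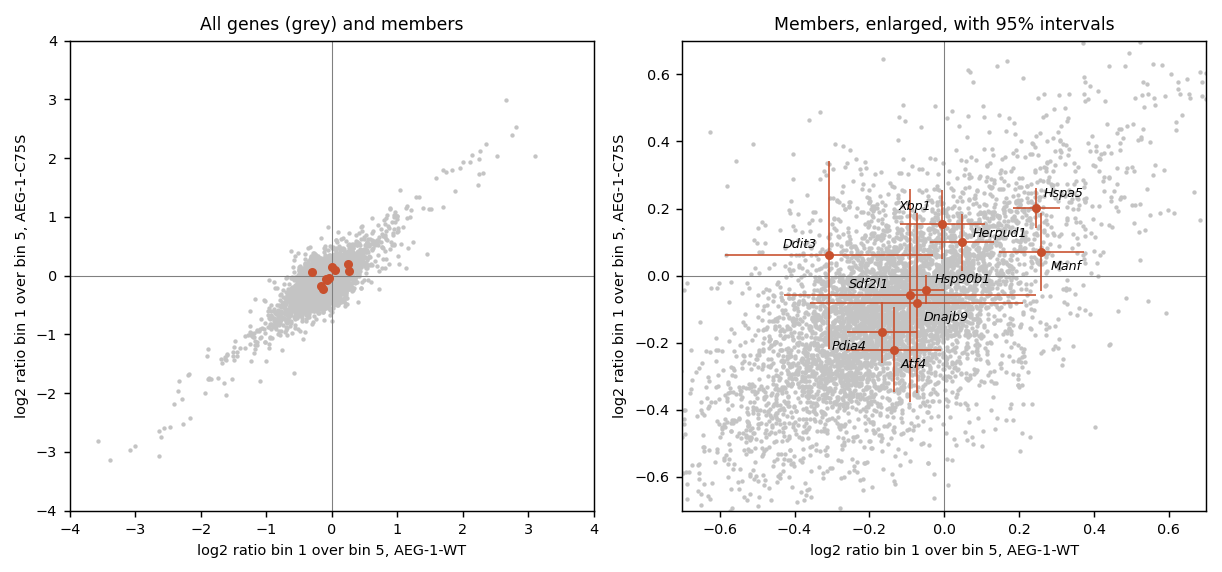
Log2 ratio of bin 1 over bin 5 in the AEG-1-WT section (horizontal) and in the AEG-1-C75S section (vertical), for all 6531 genes measured in both (grey) and for the 10 members (red). The right panel enlarges the centre and adds 95% intervals for counting error; Hspa5 is at 0.25 and 0.20, and Ddit3 and Manf lie farthest from equal values.

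Of the other members, Hsp90b1, Herpud1, Sdf2l1 and Dnajb9 were close to level along the axis. Hsp90b1 had 916, 917, 931, 940 and 947 CPM from bin 1 to bin 5 of AEG-1-WT. In AEG-1-C75S its values were 1039, 1106, 1096, 1089 and 1070 CPM, so that the lowest of them was above the highest of AEG-1-WT. Herpud1 lay between 262 and 280 CPM in AEG-1-WT and between 254 and 284 CPM in the other section, with its highest level in bin 1 of both. Sdf2l1 (16.8 to 19.4 and 17.3 to 21.7 CPM) and Dnajb9 (22.5 to 27.5 and 27.5 to 29.1 CPM) had intervals of the ratio of bin 1 to bin 5 that included 0 in both sections. For these rare transcripts, the interval of that ratio spanned from −0.43 to 0.25 for Sdf2l1 and from −0.36 to 0.21 for Dnajb9 in AEG-1-WT.

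The slopes of 3 genes were less alike in the sections. Manf had 172 CPM in bin 1 and 144 CPM in bin 5 of AEG-1-WT, but 153 and 146 CPM in AEG-1-C75S, and its slope differed by −0.19 (−0.35 to −0.03, AEG-1-C75S minus AEG-1-WT, log2). Xbp1 had 162, 170, 159, 157 and 162 CPM from bin 1 to bin 5 of AEG-1-WT. In AEG-1-C75S it had 193, 183, 180, 177 and 174 CPM, lower at each step. Its ratio of bin 1 to bin 5 was −0.01 (−0.12 to 0.11) in the former section but 0.15 (0.05 to 0.26) in the latter, a difference of 0.16 (0.01 to 0.31). Ddit3 had its lowest level in bin 1 of AEG-1-WT (24.8 CPM) and its lowest in bin 5 of AEG-1-C75S (25.6 CPM). Its log2 ratio of bin 1 over bin 5 was −0.31 (−0.59 to −0.03) in AEG-1-WT, the steepest of the members there. In AEG-1-C75S that ratio was 0.06 (−0.22 to 0.34). The difference of 0.37 had an interval from −0.02 to 0.75. For the other 7 genes the interval of the difference included 0 as well. The difference was taken for the members only, and how common such differences are among all genes was not computed.

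The ratio between the sections was also taken bin by bin. In all 5 bins, 4 of the 10 genes were higher in AEG-1-C75S (Hsp90b1, Hspa5, Xbp1 and Dnajb9), where 17.4% of 6436 genes were. In all 5, 0 of 10 were lower, where 30.5% of genes were. The 6436 genes had at least 200 UMIs per bin over both sections, and genes with few UMIs change sign more readily by counting error. Hsp90b1, Hspa5 and Xbp1 had 1285 or more in each bin of each section, so the shares are not matched for depth. For Hsp90b1 the log2 ratio ran from 0.18 to 0.27 over the bins, for Hspa5 from 0.08 to 0.19 and for Xbp1 from 0.10 to 0.26. The intervals lay above 0 in every bin for Hsp90b1 and Hspa5 and in 4 of 5 for Xbp1, but in only 1 of 5 for Dnajb9, which ran from 0.02 to 0.36. Ddit3 ranged from −0.34 in bin 3 to 0.11 in bin 1. Cyp2f2 was higher in AEG-1-C75S in every bin (2773 against 2444 CPM in bin 1, 569 against 370 CPM in bin 5), so that bins of the same number were not matched in the genes of the axis.

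Within a section, single spots differed in these genes by little more than counting at a depth of 5000 UMIs. The UMIs of every spot were drawn down to 5000, a depth that 6 AEG-1-WT spots and 17 spots of the other section did not reach. A Poisson count has a variance equal to its mean. The variance over the mean of the 10 genes ran from 0.966 to 1.06 in AEG-1-WT, and from 0.954 to 1.05 in AEG-1-C75S, and in both sections Hspa5 had the highest ratio (1.06 and 1.05). The same measure was 13.3 and 10.9 for Cyp2e1, the gene of the axis, and 4.61 and 3.01 for Spp1, a gene of bile duct cells. Genes outside the members also lay near 1: Sec61a1 at 0.99 and 0.97, Ern1 at 0.98 and 0.99, and Chac1 at 1.06 and 1.01. A value near 1 was thus not particular to the members, and the share of all genes near 1 was not computed. At an equal relative spread this measure rises with the mean, so genes of unlike means are not strictly comparable. The thinned means were 35.7 and 34.0 UMIs for Cyp2e1, 0.51 and 0.42 for Spp1, and 4.73 and 5.47 for Hsp90b1, the highest of the members. Before thinning, the median spot held 9 UMIs of Hspa5 in AEG-1-WT against 10 in AEG-1-C75S, and 16 and 20 of Hsp90b1. Ddit3 was seen in 41.1% and 39.6% of unthinned spots, and 14.6% and 12.6% of thinned ones, so for the scarce members a variation among spots would be hard to see at this depth.

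**Figure D4:**
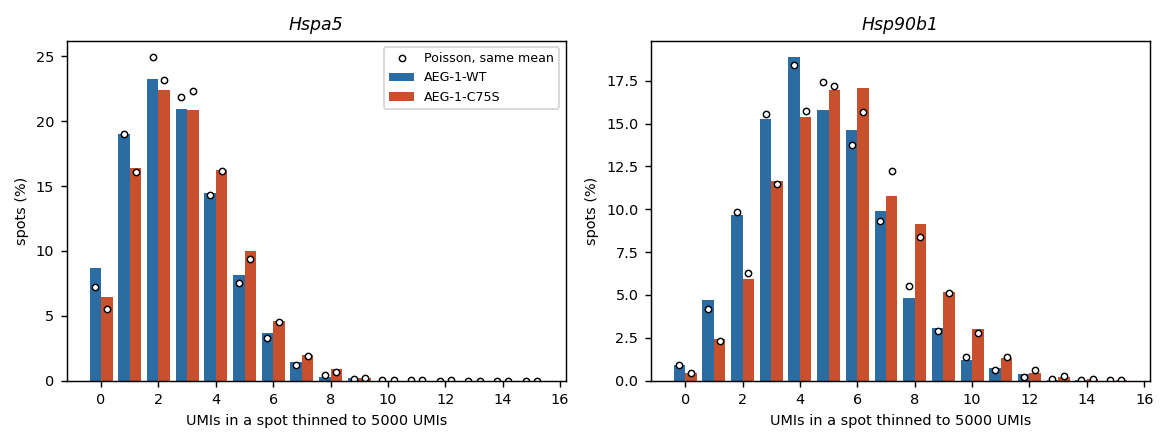
Share of spots (%) by the number of UMIs of Hspa5 (left) and Hsp90b1 (right) after thinning each spot to 5000 UMIs, with open circles for a Poisson distribution of the same mean. The bars stay near the circles in both sections, and those of AEG-1-C75S (red) lie to the right of those of AEG-1-WT (blue), with means of 2.89 against 2.63 UMIs for Hspa5 and 5.47 against 4.73 for Hsp90b1.

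Spearman's rho of the 45 pairs of members, over the thinned spots of a section, lay between −0.04 and 0.05 in AEG-1-WT, and between −0.03 and 0.04 in AEG-1-C75S, which in counts this sparse is a description only. Spots of portal tracts, the 5% richest in cholangiocyte and portal fibroblast genes, held 556.6 CPM of Hspa5 in AEG-1-WT, against 526 CPM in the other spots (log2 ratio 0.08). In AEG-1-C75S they held 574.7 CPM, against 585 CPM elsewhere (−0.03). All 10 members had intervals of this ratio that included 0, in both sections. Over the 10 bins of both sections, the genes whose level followed Hspa5 most closely among 3906 included Cp (Pearson's r = 0.988), Kng2 (0.981), Orm1 (0.971) and Apoc3 (0.964). Among the members, Xbp1 came nearest (0.785, rank 131), and Atf4 ran opposite (−0.725). The points share 2 libraries, so these values describe the sections.

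The rest of the pathway was read from lists by role. Their counts stand beside the shares over all genes tested, of which 5.9% were higher by the fold, 11.6% lower by it and 40.4% above 0. The sensors and their proteases stayed near the members, except for Ern1, which encodes IRE1. Ern1 had 55.7 CPM in AEG-1-WT against 82.0 CPM in AEG-1-C75S (2353 and 3417 UMIs, log2 ratio 0.56, 0.48 to 0.63), and was higher in each bin, by 0.47 to 0.71. It was the only one of 6 in its list past 5 to 4. Atf6 was at 0.03 (−0.06 to 0.11), Eif2ak3, which encodes PERK, at 0.18 (0.00 to 0.36), and Mbtps1, the first protease to cut ATF6, at −0.16 (−0.24 to −0.08). Of the 4 ER-bound CREB3 family factors 0 passed the fold, 1 was above 0 and the median was −0.02. The 1 above 0 was Creb3l3, the hepatocyte member, at 0.10 (0.06 to 0.13). Creb3l1 was lowest, at −0.32 (−0.70 to 0.06) on 134 and 106 UMIs.

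**Figure D5:**
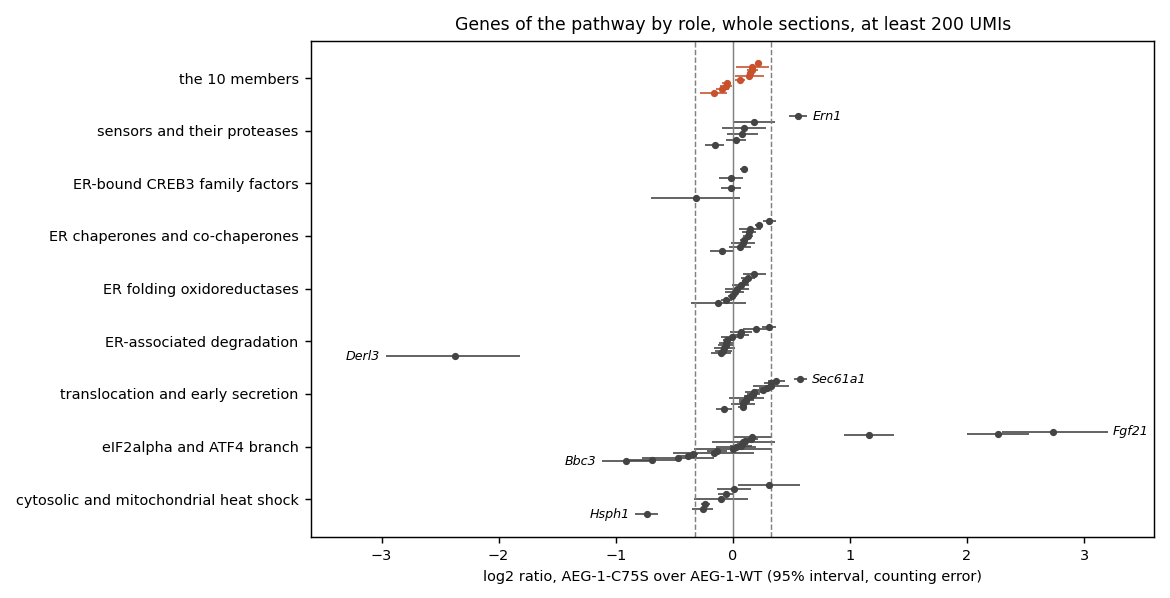
Log2 ratio of the AEG-1-C75S section to the AEG-1-WT section for the 10 members (red) and for the genes of 8 lists by role (grey), each point a gene with at least 200 UMIs and its 95% interval for counting error, with dashed lines at a ratio of 5 to 4. Members, chaperones and oxidoreductases lie within the lines, translocation genes lie to the right of 0 with 1 exception, and the eIF2α and ATF4 list reaches far to both sides.

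The other ER chaperones and co-chaperones resembled the 4 among the members: 8 of 9 were above 0, 0 passed 5 to 4 in either direction, and the median was 0.13. Hyou1 (GRP170), the nucleotide exchange factor of BiP, came closest to the fold, at 115 CPM in AEG-1-WT against 143 CPM in AEG-1-C75S (0.31, 0.26 to 0.36), and it sloped toward the portal side much as Hspa5 did (0.27 and 0.25). Calr, a lectin chaperone, was at 0.22 (0.19 to 0.25), and Creld2 at −0.09 (−0.20 to 0.01). The 9 oxidoreductases had a median of 0.03, with 6 above 0 and none past the fold, P4hb, the most studied disulfide isomerase, being at 0.10 (0.08 to 0.12).

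The genes of entry into the ER and early secretion had the highest median of the 8 lists by role, 0.17, with 14 of 15 above 0 (40.4% of all genes), 4 past 5 to 4 upward (5.9% of all genes) and 0 downward (11.6%). Sec61a1, which encodes the pore of the translocon, had 102 CPM in AEG-1-WT against 152 CPM in AEG-1-C75S (4313 and 6335 UMIs, 0.57, 0.52 to 0.63), with ratios of 0.50 to 0.64 over the bins. Ssr1 (0.37) and Ssr3 (0.33), subunits of the translocon-associated complex, and Srprb (0.32), a subunit of the receptor for the signal recognition particle, were the others. Spcs1 of the signal peptidase was the exception, at −0.07.

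ER-associated degradation, the group of Herpud1, lay around the median gene: 4 of 12 genes were above 0, the median was −0.05, and 1 passed the fold, downward, as did 11.6% of all genes. This was Derl3, a derlin of the retrotranslocation machinery, with 168 UMIs in AEG-1-WT against 32 in AEG-1-C75S (−2.37, −2.97 to −1.82), lower in every bin. Its relative Derl2 went the other way, at 98.5 and 121.8 CPM (0.31, 0.25 to 0.37). Derl3 is also known from antibody-secreting cells, and the plasma and B cell list was at 82.1 CPM in AEG-1-WT against 86.6 CPM in AEG-1-C75S, with Jchain at 149 and 90 UMIs, Mzb1 at 23 and 35, and Igkc at 1546 and 1768. The part of such cells in the Derl3 ratio was not tested.

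The eIF2α and ATF4 list held the widest range, with 3 of 18 genes past the fold upward and 5 downward, against 5.9% and 11.6% of all genes, around a median of 0.05. Atf3, a stress-induced transcription factor, had 147 UMIs in AEG-1-WT against 695 in AEG-1-C75S (2.26, 2.0 to 2.53). Fgf21, a liver hormone of fasting and stress, had 49 and 322 UMIs (2.74, 2.30 to 3.20), and Chac1, which degrades glutathione, had 267 and 588 (1.16, 0.95 to 1.37). These 3 were higher in AEG-1-C75S in every bin. The transcripts of Atf4 and Ddit3, whose proteins can act on their promoters, were at −0.09 and −0.16, and neither protein was measured. The part of these factors in the 3 ratios was not tested.

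Other genes of the list went either way, and 11 of its 18 genes were above 0, against 40.4% of all genes. Cebpg (0.16, 0.10 to 0.22), Cebpb (0.10, 0.07 to 0.14) and Atf5 (0.08, 0.03 to 0.13) were slightly higher. Bbc3, which encodes the death factor PUMA, had 550 UMIs in AEG-1-WT against 289 in AEG-1-C75S (−0.91, −1.12 to −0.70), and Vldlr (−0.69), Ddit4 (−0.47), Ppp1r15b (−0.38), the constant phosphatase subunit of eIF2α, and Shmt2 (−0.34) also passed the fold downward. Trib3, a pseudokinase, had 579 and 582 UMIs (0.03, −0.14 to 0.20), and Ppp1r15a (GADD34), the inducible phosphatase subunit of eIF2α, had 625 and 692 (0.17, 0.01 to 0.32). Asns, an amino acid gene of the same branch, had only 19 and 18 UMIs and was not among the 18. In the cytosol and mitochondria, 2 of 7 heat shock genes were above 0, and Hsph1, an HSP70 exchange factor, passed the fold downward, at 2288 and 1354 UMIs (−0.74, −0.84 to −0.64).

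Other groups of genes differed between the sections beside these results. The clock genes in phase with Dbp had 700.6 CPM in AEG-1-WT against 369 CPM in AEG-1-C75S, with 6 of 7 lower by 5 to 4, and those in phase with Arntl had 32.6 and 52.8 CPM. Among fasting genes Igfbp1 was at 2.66 and Pck1 at −0.31, and Fgf21 stands in that list too. Kupffer cell genes had 866 and 1159 CPM, with 4 of 5 higher by the fold, stellate cell genes 551 and 703 CPM, portal fibroblast genes 163 and 78.4 CPM, with 5 of 5 lower, cholangiocyte genes 129 and 96.6 CPM, and red blood cell genes 626.6 and 416 CPM, with 4 of 4 lower. Mtdh, the gene of AEG-1, lay between 71.0 and 75.8 CPM in all bins of both sections. The part of clock phase, feeding state and cell makeup in the ratios of the members was not tested. Without the 5% of spots richest in portal tract genes, 0 of 10 members passed the fold, as with them. These were few spots, so their removal could hardly change the count, and it says nothing of clock phase, feeding or cell makeup.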

How the data were processed

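Per the study's methods, the authors ran Space Ranger 2.0.1 on the mm10 reference with the mouse probe set, and Seurat 4.3.0 thereafter. Each deposited table holds raw UMI counts of 19465 rows for the spots under tissue, without normalization. Rows were summed by symbol, spots with at most 50000 UMIs were kept, and UMIs were summed over a section or a bin of the lobule axis. Sums were divided by the total (CPM), so a change in a few abundant genes shifts all others. A gene was compared from 200 UMIs, summed over the pair of sections or, for the axis, over the pair of outer bins of each section. A difference was counted from a ratio of 5 to 4. The tools were pandas 2.3.3, numpy 2.4.6 and scipy 1.17.1 under python 3.11.15, with edgeR 4.0.16 in R 4.3.3 for TMM factors only. No column of other samples was used. All 10 members were named. From the lists a selection of genes was named, and not every gene past the fold or at an end of its list. For likeness to Hspa5, Pearson's r was taken over 10 log2 CPM values; of the 5 nearest genes, 1 is not reported here. Scripts were tested on simulated data. The members, lists and rules were chosen with earlier results of these data known. Glul and the spot coordinates were not analysed here.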

Additional observations from a re-analysis of the deposited data

How the results depend on the processing

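With 1 section per genotype, counting intervals leave out the spread between animals. No paired analysis was possible because each genotype has 1 section. The number of members past the fold, 0 between the sections and 0 along the axis in both directions, was also 0 under the other spot filters, scalings, weights, depths and axes tried. A stricter fold or another minimum of UMIs could not add a member, and those alternatives say nothing of its stability. The median ratio between the sections, 0.10, was 0.16 with TMM factors and 0.041 with every spot thinned to 5000 UMIs, and that of bin 1 over bin 5 in AEG-1-WT, −0.06, was 0.072 after centring on the median gene. Alternatives for the count of members lower in all bins were chosen after seeing the data: it was 0, and became 1 with equal weight per spot, 1 without portal tract spots, 1 with an axis pseudocount of 5, 2 with the axis from Hal and Gls2 over Cyp1a2 and Oat, 2 with bins cut over both sections and 3 with 3 bins. The cause was not tested. The 4 members higher in all bins became 3 to 6, over alternatives also chosen after seeing the data. The share of all genes under these alternatives was not computed, and a single sign in all bins is easier to reach with fewer bins. Of single ratios between the sections, only that of Herpud1 changed sign, from −0.05 to 0.0056 with TMM factors. Hspa5 stayed between 0.13 and 0.20 and Hsp90b1 between 0.21 and 0.27. Along the axis, Hspa5, Manf and Herpud1 stayed above 0 and Pdia4 and Atf4 below it in both sections, while Hsp90b1, Sdf2l1, Dnajb9, Xbp1 in AEG-1-WT and Ddit3 in AEG-1-C75S took either sign. Depth limits Sdf2l1, Dnajb9 and Ddit3 most.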
